A study of Drosophila melanogaster with 3 samples.

Results

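Transcripts of 51 genes for conjugating enzymes were compared between ovaries of Drosophila melanogaster that held an sva53 mutant germ line and ovaries that held an sva53/+ germ line. The 51 genes were 17 glutathione transferases outside the delta class and 34 UDP-glycosyltransferases. They were chosen by name: every gene whose symbol began with GstE, GstO, GstS, GstT, GstZ, Mgst or Ugt and that had at least 1 array feature of its own, other than GstE14, out of 10805 genes with a feature of their own. By class, there were 6 epsilon (GstE), 3 omega (GstO), 1 sigma (GstS1), 4 theta (GstT), 2 zeta (GstZ) and 1 microsomal (Mgstl) glutathione transferase genes. RefSeq lists 59 genes under these names, and the other 8 were not analysed here: Ugt37C1, GstE2, GstE4, GstE5, GstE6, GstE7, GstE8 and GstE9.

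Glutathione transferases join the tripeptide glutathione to reactive compounds, such as the aldehydes left by lipid peroxidation, plant toxins and insecticides. The epsilon and delta classes are specific to insects and other arthropods, while omega, sigma, theta and zeta enzymes are shared with other animals. UDP-glycosyltransferases of insects mostly transfer glucose from UDP-glucose to small lipophilic molecules, which makes them soluble and easier to excrete. Both families lie largely in tandem arrays of related genes and are best known from the gut, the fat body, the Malpighian tubules and sense organs, and less is known of them in the ovary.

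Each of 3 arrays compared a pool of 2 pairs of mutant ovaries with 1 control RNA made from 3 pairs of sva53/+ ovaries. The mutant germ line came from pole cells (germ cell precursors) of embryos of sva53[M1] homozygous germline clones, and the control germ line from pole cells of sva53/+ embryos. Both were placed in host embryos laid by osk-homozygous females, so follicle cells and all other somatic cells of both kinds of ovary were those of the host, and the flies were about 7 days old. The mutant pole cells had also lacked normal maternal product, so maternal and germline effects cannot be told apart. Enzymes of these families made in somatic cells would report on host cells. In whole ovaries, fewer cells of a type and less RNA per cell cannot be told apart.

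Each value is a log2 ratio, mutant over control, for pools 1, 2 and 3 after the mutant pool on the array, with the mean ± SD (n = 3). The direction is likely and not stated: the labels put the mutant in Cy3 and the control in Cy5, and the software that made the files writes Cy5 over Cy3, so the sign was turned. With the other numerator every "higher" below becomes "lower". The ratios hold no level, so neither the abundance of a transcript nor the presence of an ovary's defining markers could be read from them. A change was called at a Benjamini-Hochberg adjusted p under 0.05 over 15415 features in limma, which tests each ratio against 0. The features of a gene were averaged first, so 10805 of the 15415 are genes. Since the control was a single RNA in a single dye, its own deviation and any dye bias enter all 3 pools alike and are not part of the SD. From background knowledge, not from the labels, sva53 is an allele of mamo, whose product is a BTB and zinc-finger protein. The mamo feature read -0.30, -0.49 and 0.50 and does not check the labels.

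Among the 51 genes, 5 were higher in the mutant ovaries, 2 were lower and 44 did not pass (2 higher and 5 lower with the sign turned). GstE11, Ugt36F1, Ugt35A1, Ugt305A1 and Ugt302K1 rose, and GstE13 and Ugt317A1 fell. The called changes were moderate, between 1.25-fold and 1.71-fold. The share called, 13.7%, was near that of all genes, of which 13.4% were called, 6.36% higher and 7.04% lower (13.9% of all features). With any 1 array left out, limma called 0 of all features and 0 of the 51 genes, while 29.4%, 27.5% and 29.4% of the 51 genes had an unadjusted p under 0.05 without pools 1, 2 and 3, against 30.6%, 21.3% and 27.9% of all features. The sizes of the means were larger than for most genes: the median absolute mean was 0.27 in the 51 genes and 0.15 over all genes, and 8 of 51 (15.7%) against 5.53% of genes had a mean at least 1.5-fold from 0. The spread between pools was also somewhat wider, with a median SD of 0.13 against 0.11, and 4 of those 8 genes, GstE1, GstT4, Ugt37C2 and Ugt37D1, did not pass. All 3 pools had the same sign in 31 of the 51 genes (60.8%), near the 58.9% of all genes, so a shared sign alone was common.

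The epsilon class held the highest and the lowest mean of the 51 genes. GstE11 encodes an epsilon enzyme whose gene lies apart from the main epsilon array, and its single feature read 0.90 in pool 1, 0.61 in pool 2 and 0.82 in pool 3. All 3 pools lay well above 0, and the mean was 0.78 ± 0.15 (1.71-fold, limma adjusted p = 0.034, 95% interval 0.56 to 0.99). It was the highest mean of the 51 genes and the 85th from the top of 10805 genes.

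GstE13, also outside that array, went the other way. It read -0.49, -0.68 and -0.63 in pools 1, 2 and 3, a narrow range on the low side, with a mean of -0.60 ± 0.10 (1.52-fold lower, limma adjusted p = 0.034, interval -0.77 to -0.43). Its 2 features gave means of -0.66 and -0.54, so both placed it low. GstE12 was lower by a small and steady amount, at -0.16, -0.18 and -0.20, with features at -0.22 and -0.14. Its mean of -0.18 ± 0.016 did not pass (limma adjusted p = 0.078).

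GstE1, one of the best studied epsilon enzymes and able to conjugate the lipid peroxidation product 4-hydroxynonenal, had the mean furthest from 0. It read -2.51 in pool 1, -0.20 in pool 2 and -1.89 in pool 3. Pools 1 and 3 were thus far below the control while pool 2 was close to it. The mean of -1.53 ± 1.20 was the 32nd lowest of all genes but did not pass (limma adjusted p = 0.12), and its interval ran from -2.93 to -0.14. The feature was single, so no other feature of GstE1 could be set beside it.

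GstE10, the gene next to GstE1, did not share this pattern. It read 0.29, -0.11 and 1.11 in pools 1, 2 and 3, highest in a pool where GstE1 was very low, and its mean of 0.43 ± 0.62 did not pass. The ratio of GstE10 exceeded that of GstE1 by 2.80, 0.090 and 3.01 log2 in pools 1, 2 and 3. GstE3, on the other side of GstE1 beyond the unmeasured GstE2, read -0.50, -0.65 and 0.14 (mean -0.34 ± 0.42, not called). These 3 genes lay closest together in pool 2.

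**Figure D1:**
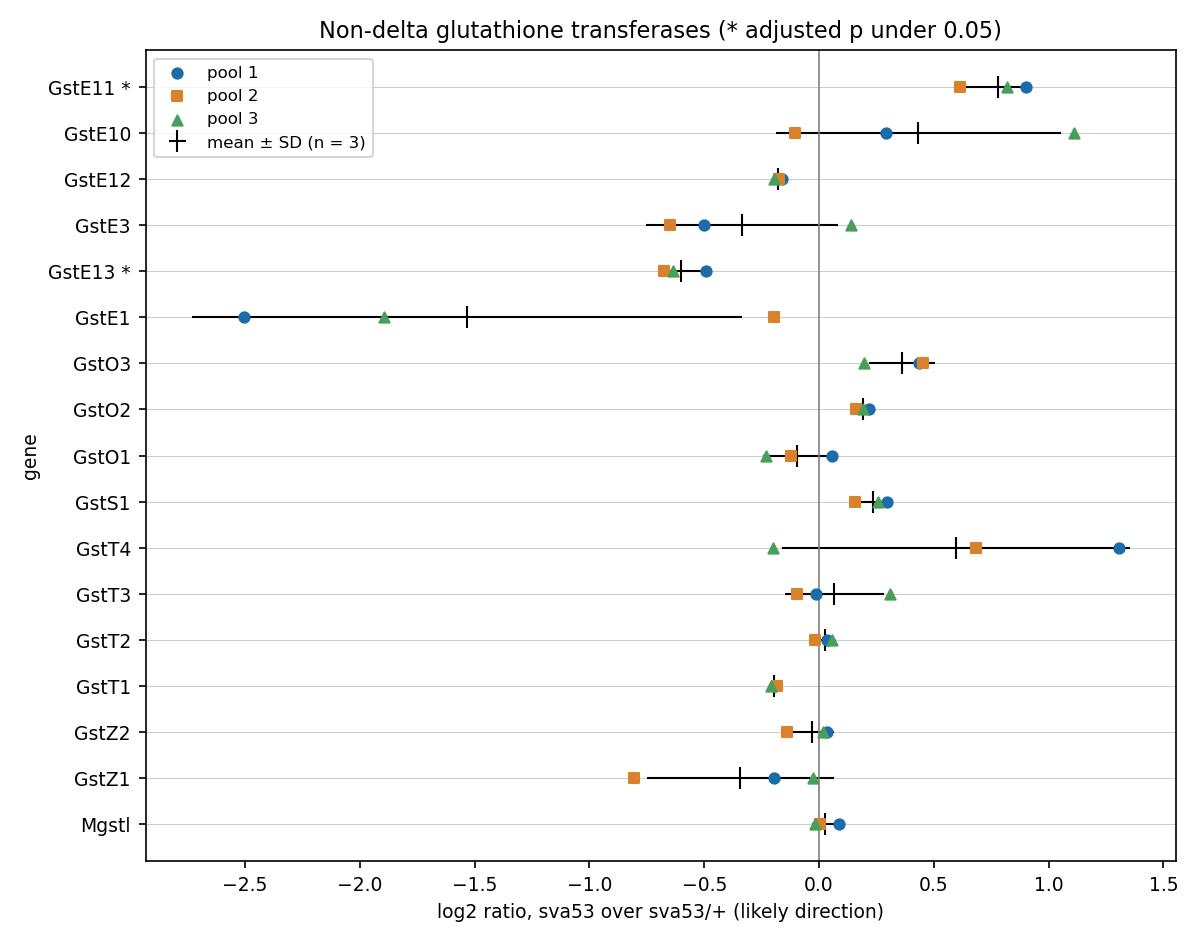
Log2 ratio of mutant over control ovaries (x axis, likely direction) for the 17 non-delta glutathione transferase genes (y axis, ordered by class), with 1 symbol per mutant pool and a black bar for the mean ± SD of the 3 pools. GstE11 and GstE13, marked with an asterisk, keep their 3 pools close together on opposite sides of 0, while GstE1 spans -2.51 to -0.20 and GstT4 spans -0.20 to 1.30.

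None of the 11 genes of the other classes was called with limma, against 13.4% of all genes. In that fit 4 of them had an unadjusted p under 0.05 (36.4%, against 35.8% of all genes). Omega enzymes carry a cysteine in the active site and act as thiol transferases and dehydroascorbate reductases. GstO3 read 0.44, 0.45 and 0.20 (mean 0.36 ± 0.14), with all pools above 0, and lay just outside the threshold (limma adjusted p = 0.056). It was called in 4 of the 8 alternatives that kept all pools and the threshold, and the nearest called gene inside the threshold was Ugt302K1, at 0.049. GstO2 was steady at 0.22, 0.16 and 0.19, with features at 0.13 and 0.25, and was not called (limma adjusted p = 0.072). GstO1 read 0.056, -0.12 and -0.23 and lay on both sides of 0. The means of these omega genes thus ran from 0.36 through 0.19 to -0.10 in gene order, with 1 other protein-coding gene between GstO3 and GstO2. In pool 3 GstO3 lay above GstO2 by only 0.003.

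GstS1, the sigma class enzyme known for conjugating lipid aldehydes and for its abundance in flight muscle, had a mean of 0.24 ± 0.073 (0.30, 0.16 and 0.26, limma adjusted p = 0.065). The mean hides a disagreement between its features: one read 0.69, 0.40 and 0.43 and the other -0.091, -0.087 and 0.083. Taken alone, the first was called and the second was not.

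Among the theta genes GstT4 had the widest spread. It read 1.30 in pool 1, 0.68 in pool 2 and -0.20 in pool 3, and its 2 features followed each other (1.35, 0.74 and -0.11 for one, 1.26, 0.62 and -0.29 for the other). Pool 3 thus had the opposite sign to the others on both features, and the mean of 0.60 ± 0.76 did not pass (limma adjusted p = 0.26). GstT1 was low by a small amount in every pool, at -0.19, -0.18 and -0.21, and its mean of -0.20 ± 0.012 was not called (limma adjusted p = 0.066). Its neighbour GstT2 read 0.034, -0.016 and 0.056. GstT3 read -0.015, -0.094 and 0.31.

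Zeta enzymes isomerise maleylacetoacetate in the breakdown of tyrosine. GstZ1 read -0.20, -0.80 and -0.027, low mainly in pool 2, and its mean of -0.34 ± 0.41 was not called. GstZ2, beside it, read 0.034, -0.14 and 0.017. Mgstl, which belongs to a family of membrane-bound transferases unrelated to the soluble ones, read 0.089, 0.002 and -0.018. Its 95% interval ran from -0.12 to 0.17.

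Of the UDP-glycosyltransferase genes 4 of 34 rose, 1 fell and 29 did not pass. The share called, 14.7%, was near the 13.4% of all genes. Ugt36F1 had the highest mean of the family, with 0.92, 0.82 and 0.47 in pools 1, 2 and 3. Every pool was above 0, with pool 3 the lowest, and the mean of 0.74 ± 0.24 passed (1.67-fold, limma adjusted p = 0.038). Ugt35A1 read 0.74, 0.32 and 0.73, high in pools 1 and 3 and lower in pool 2 (mean 0.59 ± 0.24, limma adjusted p = 0.047).

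Ugt305A1 gave the steadiest of the higher values, at 0.48, 0.55 and 0.63. Its mean of 0.55 ± 0.073 had an interval from 0.40 to 0.70 (limma adjusted p = 0.034). Ugt302K1 rose by the smallest amount, reading 0.42, 0.32 and 0.23 (mean 0.32 ± 0.095, limma adjusted p = 0.049). It was the least firm of the calls, not called with a robust prior or with grid trends removed. Ugt317A1 was the family's only called decrease, at -0.61, -0.45 and -0.59 (mean -0.55 ± 0.086, limma adjusted p = 0.034). Each of these 5 genes rests on 1 feature.

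Several further family members had large means and pools that differed, and did not pass. Ugt37D1 read 1.05, 0.71 and 0.27 (mean 0.68 ± 0.39, limma adjusted p = 0.074), and Ugt37C2 read 1.09, 0.78 and 0.021 (mean 0.63 ± 0.55, limma adjusted p = 0.15). Both were highest in pool 1 and lowest in pool 3, as GstT4 was. Ugt49B1 read 0.52, 0.83 and 0.21. Ugt50B3, with 3 features at means between 0.26 and 0.66, read 0.68, 0.11 and 0.73, so it was low in pool 2 as Ugt35A1 was. On the low side, Ugt37A3 read -0.19, -1.16 and -0.059, and its mean of -0.47 ± 0.60 rested mainly on pool 2. Ugt37E1 was low in all pools, at -0.21, -0.54 and -0.20 (mean -0.32 ± 0.19, limma adjusted p = 0.095). So was Ugt36E1, with a mean of -0.29 ± 0.13 and features at -0.33 and -0.25.

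**Figure D2:**
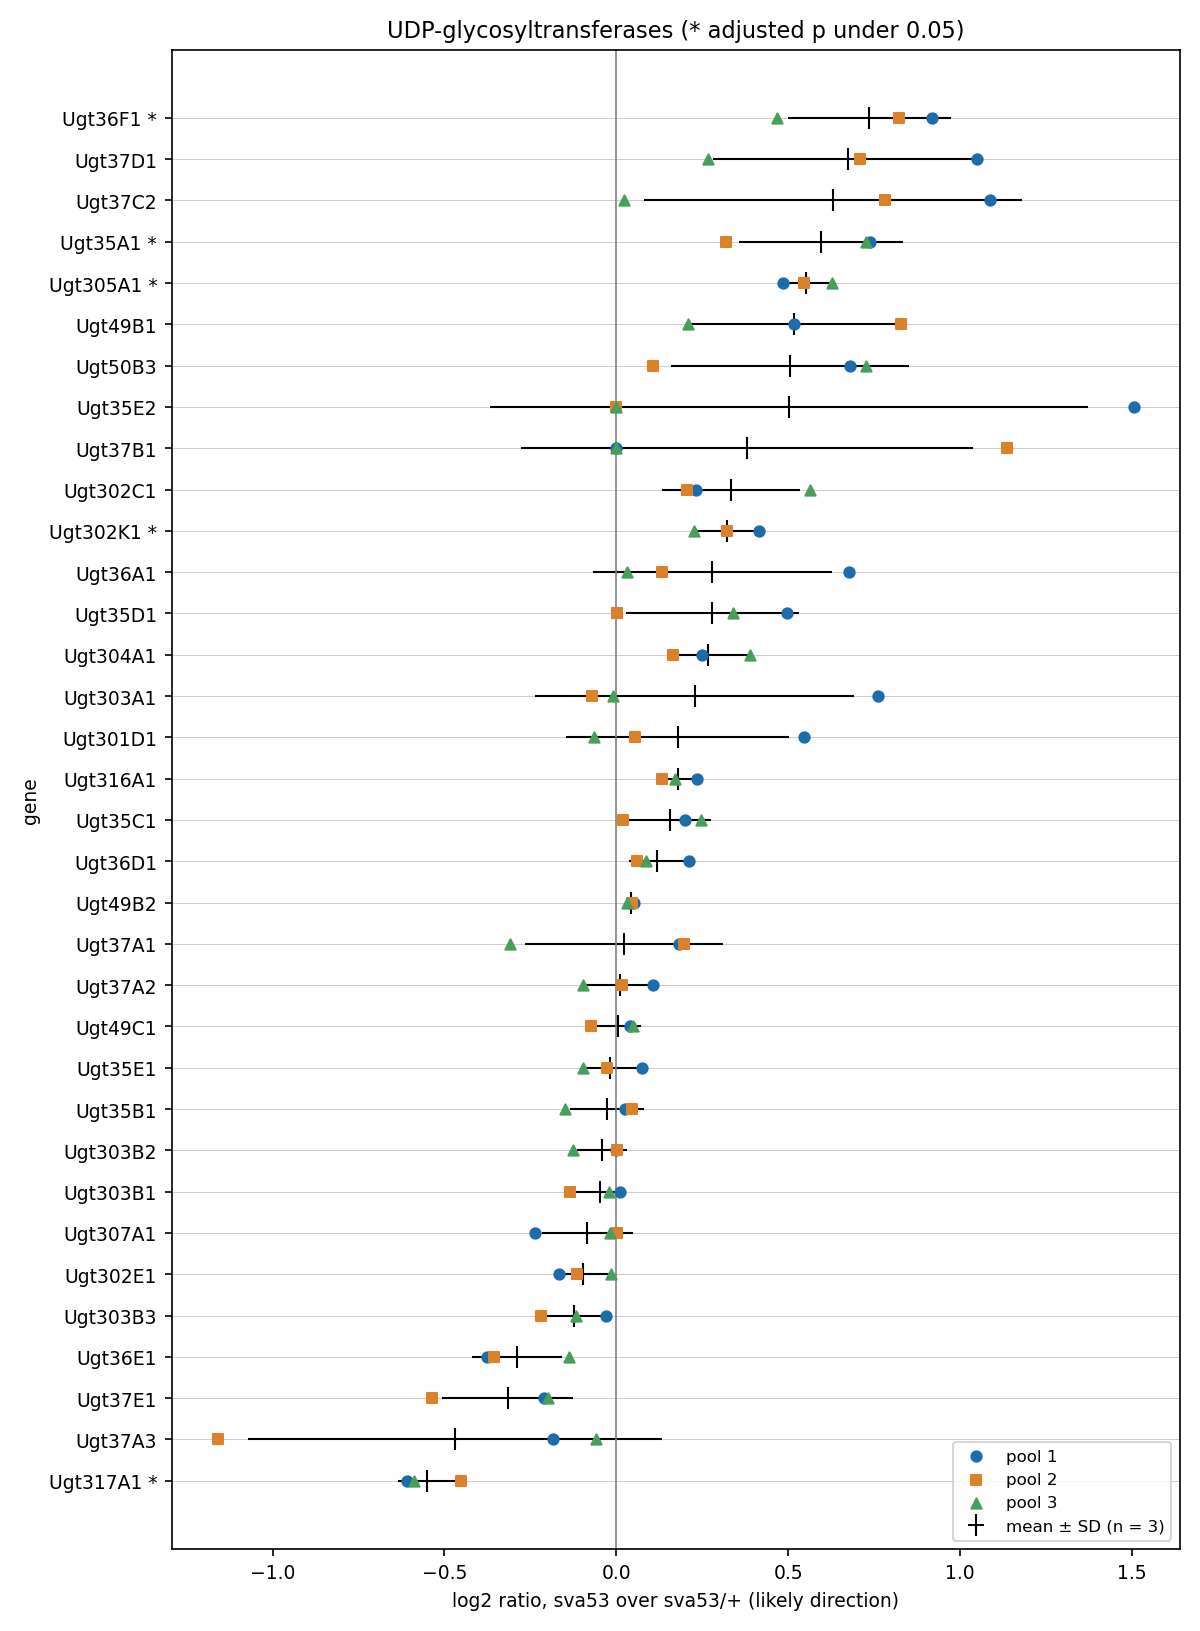
Log2 ratio of mutant over control ovaries (x axis, likely direction) for the 34 UDP-glycosyltransferase genes (y axis, from the highest to the lowest mean), with 1 symbol per pool and a black bar for the mean ± SD of the 3 pools. The 23 genes with a mean above 0 reach up to 0.74, and the 5 called genes, marked with an asterisk, have their 3 pools on one side of 0.

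For a few genes the deposited ratio was exactly 0 on some arrays, which can mean that no ratio was obtained there. Ugt35E2 read 1.51 in pool 1 and exactly 0 in the other pools, and Ugt37B1 read 1.14 in pool 2 and exactly 0 in the other pools. Their means of 0.50 and 0.38 were not called and rested on 1 pool each, and whether the zeros are missing ratios was not tested. Ugt303A1 held an exact 0 at 1 of its 2 features, and its pool 1 value of 0.76 came from 1 feature at 1.55 while the other read -0.028. Ugt303B2 held 1 exact 0, with the other pools at 0.002 and -0.12.

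The remaining family members stayed closer to 0. Ugt302C1 (mean 0.33 ± 0.20), Ugt304A1 (0.27 ± 0.11) and Ugt316A1 (0.18 ± 0.052) were above 0 in all pools, and none was called. Ugt36A1, also named Dorothy and known from pericardial cells, read 0.68, 0.13 and 0.031, and Ugt301D1 read 0.55, 0.056 and -0.066, so both were high mainly in pool 1. Ugt35D1 read 0.50, 0.003 and 0.34. Ugt35C1, which has been linked to nicotine resistance of larvae, had a mean of 0.155 ± 0.12, and Ugt36D1 of 0.12 ± 0.081 with features of opposite sign at 0.38 and -0.14. The other 10 genes, Ugt35B1, Ugt35E1, Ugt37A1, Ugt37A2, Ugt49B2, Ugt49C1, Ugt302E1, Ugt303B1, Ugt303B3 and Ugt307A1, had means between -0.12 and 0.042.

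The intervals show how much of a change could have been seen given the spread between pools. They leave out the deviation of the single control RNA and any dye bias. Since the ratios hold no level, a narrow interval near 0 does not show that the transcript was detected or that a change could have been seen. Of the 44 genes that were not called, 28 had a 95% limma interval that lay wholly within 1.5-fold of no change, 9 of them among the 11 non-epsilon transferases, 18 among the UDP-glycosyltransferases and 1, GstE12, in the epsilon class. For the other 16, a change of 1.5-fold lay within the interval. Of the 44 intervals, 14 did not include 0, which is an unadjusted reading, and 41.2% of the 51 genes had an unadjusted p under 0.05 against 35.8% of all genes.

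**Figure D3:**
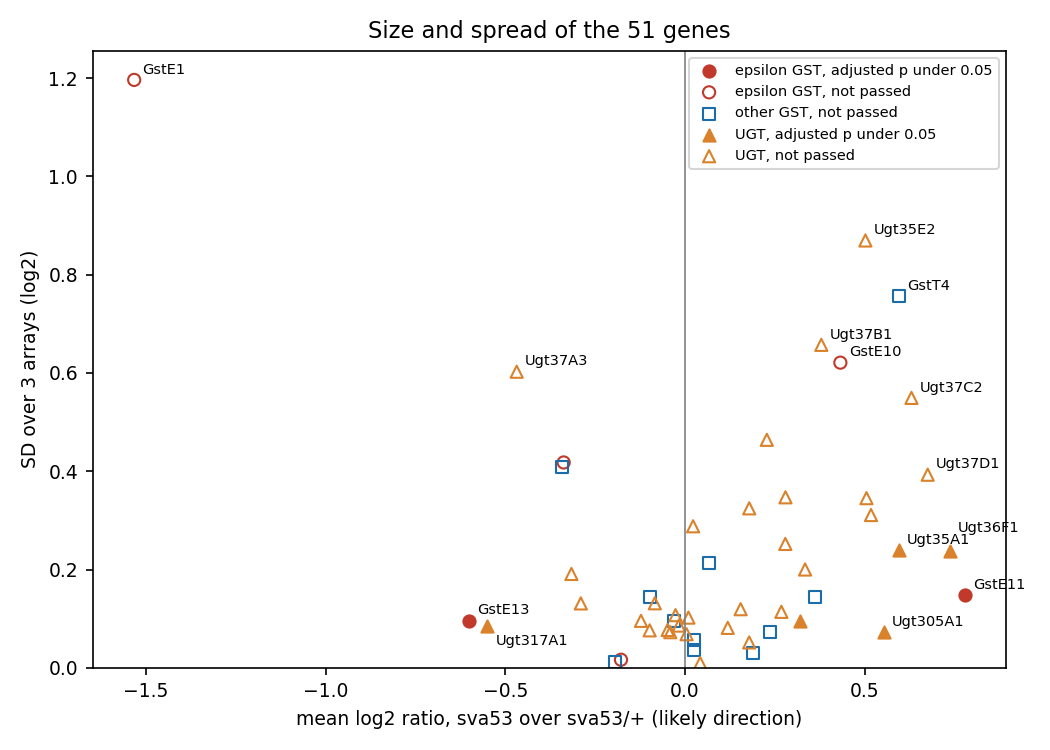
Mean log2 ratio of mutant over control (x axis, likely direction) against the SD over the 3 arrays (y axis, log2) for the 51 genes, with filled symbols for genes called with limma. The called genes have SDs between 0.073 and 0.24, while GstE1, at -1.53 with an SD of 1.20, lies apart from all others and is not called.

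Neighbouring genes of these families often had unlike ratios. In RefSeq gene order, with at most 2 other protein-coding genes between consecutive family genes, there were 10 neighbourhoods of 2 to 10 family genes. In the neighbourhood of Ugt37C2, Ugt37E1 and Ugt37D1, with no other gene between them, the outer genes had means of 0.63 and 0.68 and the middle gene -0.32. The ratio of Ugt37C2 exceeded that of Ugt37E1 by 1.30, 1.32 and 0.22 log2 in pools 1, 2 and 3, and that of Ugt37E1 lay below Ugt37D1 by differences of -1.26, -1.25 and -0.47. The middle gene was the lowest of them in each pool.

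Ugt36F1, Ugt36D1 and Ugt36E1, also side by side, stepped down in their order from 0.74 through 0.12 to -0.29. In the gene averages that order held in each of the 3 pools, with Ugt36F1 above Ugt36D1 by 0.71, 0.76 and 0.38 and Ugt36D1 above Ugt36E1 by 0.59, 0.41 and 0.23. Ugt36D1 averages 2 features of opposite sign, with means of 0.38 and -0.14. In pool 3 the lower of them read -0.13, below 1 feature of Ugt36E1 at -0.048. The largest complete neighbourhood held 10 UDP-glycosyltransferase genes, from Ugt35C1 to Ugt303A1. There Ugt302K1 and Ugt35A1 rose, 0 fell and 8 did not pass, where 13.4% of all genes were called. Means in that neighbourhood ran from -0.10 (Ugt302E1) to 0.59. Ugt35A1 lay above its neighbour Ugt35B1 in every pool (the difference of Ugt35B1 from it was -0.71, -0.27 and -0.88). Ugt303B3, Ugt303B1 and Ugt303B2 were the most alike of the neighbourhoods, with means of -0.12, -0.048 and -0.041. These differences were not tested, and related genes in tandem can share part of a hybridisation signal, by an amount that was not measured here.

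**Figure D4:**
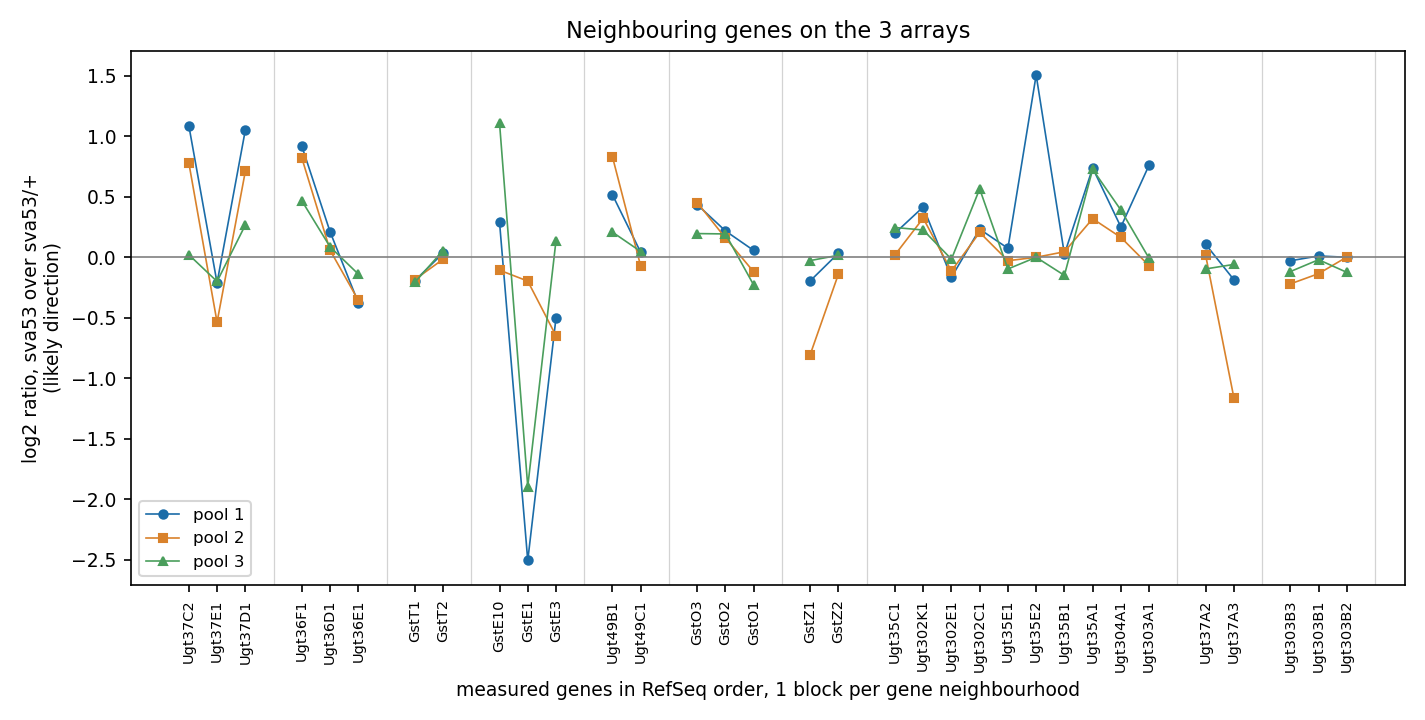
Log2 ratio of mutant over control (y axis, likely direction) for the measured genes of each gene neighbourhood in RefSeq order (x axis, blocks split by grey lines), with 1 coloured line per pool. Ugt37E1 dips below both of its neighbours in all pools, and GstE1 dips to -2.51 and -1.89 in pools 1 and 3 but not in pool 2.

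Read by pool, the UDP-glycosyltransferases were above 0 in 25 of 34 genes in pool 1, 23 in pool 2 and 17 in pool 3, against 50.6%, 48.8% and 48.6% of all genes. Their median was 0.21 in pool 1, 0.045 in pool 2 and 0.011 in pool 3. The median of their means was 0.17 and, with pool 1 left out, 0.019, against 0.18 and 0.19 without pools 2 and 3. The size of the family's upward shift thus depended most on pool 1, although the count above 0 was also high in pool 2. Array 1 was wider for the whole table too: the SD over all features was 0.49 log2, against 0.35 and 0.34 on arrays 2 and 3. The 11 non-epsilon transferases had medians of 0.056, -0.016 and 0.017, and the epsilon genes of -0.33, -0.19 and -0.029.

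The eggshell, fat body and basement membrane lists were also furthest from 0 in pool 1. The median of 9 measured eggshell genes of late follicle cells, out of 21 listed, was -2.87 in pool 1, -0.47 in pool 2 and -0.008 in pool 3, and 0 of 9 were called. Of 13 measured fat body markers, 3 were lower, 0 higher, and the median was -0.41, -0.035 and -0.070 in pools 1, 2 and 3. The called ones were Pepck1 (-1.80), Lsd-1 (-1.71) and Obp99b (-1.52). Means above 0 were seen for 4 of the 13, among them Fbp2 (0.50) and Lsp2 (0.39), and were not called. Of 16 hemocyte and basement membrane genes 5 were lower and 0 higher, with medians of -0.29, -0.15 and -0.038. The lower ones all encode parts of the basement membrane: LanB2 (-0.71), SPARC (-0.93), vkg (-1.04), Col4a1 (-1.09) and LanA (-1.17). The other 11 were not called, among them the hemocyte genes NimC1 (0.25), Hml (0.056) and srp (-0.58). Of the 16 means, 5 lay above 0 and 11 below. Midgut markers had medians of -0.074, -0.11 and -0.072, with 1 of 24 higher and 3 lower. Malpighian tubule markers had medians of -0.023, 0.17 and -0.012, with ry (0.66) higher and 0 of 15 lower. Muscle markers had medians of 0.045, 0.25 and 0.17 with 0 of 14 called, and markers of the reproductive tract had medians of -0.022, 0.072 and -0.076, with 1 of 6 higher and 1 lower. Of all genes, 6.36% were called higher and 7.04% lower. The part of the cells marked by these lists in the values of the 51 genes was not tested.

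**Figure D5:**
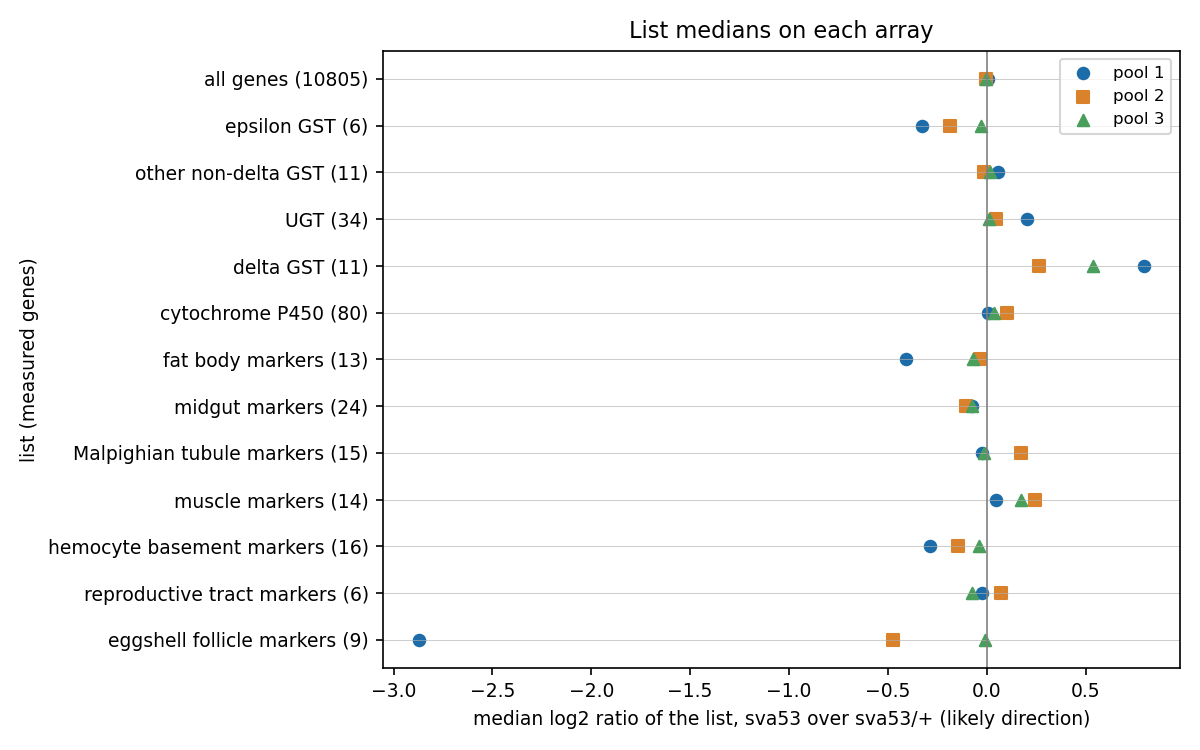
Median log2 ratio of mutant over control (x axis, likely direction) on each array for all genes, the classes described here, related enzyme families and marker lists (y axis, with the number of measured genes), with 1 symbol per pool. The UDP-glycosyltransferase medians lie between 0.011 and 0.21, and the eggshell median of pool 1, -2.87, lies far from those of pools 2 and 3. The cytochrome P450 row also holds the cyclophilin genes Cyp1 and Cyp40.

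Related enzyme families gave a point of comparison. In the delta class of glutathione transferases 4 of 11 genes rose and 0 fell, with a median of 0.57 and pool medians of 0.79, 0.27 and 0.54, against a median of 0.024 over the 17 non-delta genes, of which 1 rose and 1 fell. The shares called were 36.4% and 11.8%, against 13.4% of all genes. Oxidised products of cytochrome P450 enzymes are common substrates of both conjugating families. Among 80 genes with symbols of Cyp and a number, 10 rose and 2 fell, with a median of 0.063. The share called was 15%, against 13.4% of all genes. They are cytochrome P450 genes except Cyp1 (-0.18) and Cyp40 (0.16), which encode cyclophilins and were not called. The largest increases were Cyp4e2 (1.29) and Cyp6a20 (1.12), and Cyp4p2 fell by 1.56. The difference between these families and the 51 genes was not tested.

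Among 29 measured genes listed for co-substrate supply, regulation of the pathway or export, 2 rose and 3 fell, a share called of 17.2% against 13.4% of all genes. Of 6 measured genes for glutathione and NADPH supply, Idh, an isocitrate dehydrogenase gene, rose (0.29 ± 0.018) and the glutathione synthetase gene Gss2 fell (-0.31 ± 0.082), and 4 did not pass, among them the catalytic subunit of glutamate-cysteine ligase, Gclc (0.22 ± 0.012). Of 7 regulators of detoxification, Hr96, a nuclear receptor of the xenobiotic response, rose (0.38 ± 0.12) and maf-S, the small Maf partner of cnc, fell (-0.33 ± 0.11). The stress factor gene cnc itself read 0.12 ± 0.017 and its inhibitor Keap1 -0.068 ± 0.0082, and neither was called. Of 8 genes for UDP sugars and their use, Galt, for galactose-1-phosphate uridylyltransferase, fell (-0.78 ± 0.30) and 7 did not pass, including UGP, which makes UDP-glucose (-0.023 ± 0.042). Of 8 genes listed for export transporters, the Mdr genes included, 0 were called with limma, where 3 had an unadjusted p under 0.05. The means of the 8 ran from -0.55 (Mrp4) to 0.093 (Mdr65), and whether each of them exports conjugates was not examined.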

How the data were processed

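The deposited values are log10 ratios of the 2 channels of each array, 1 per feature, and the submitters' processing notes name Agilent Feature Extraction 7.1. The sources used here do not give the background correction, the dye normalisation or the numerator, and the log scale was read from the values. Per the labels, 100 ng of total RNA was amplified before labelling.

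The table held 22575 features, of which 636 at the edge of the grid, none annotated, were left out. Each ratio was turned in sign and converted to log2. Array medians were 0 over the features, and 0, -0.0069 and -0.0044 after averaging per gene, and no centring was added. Features were named through the platform annotation, and all 51 symbols matched RefSeq (assembly GCF_000001215.4). The 51 genes had 66 features, averaged per gene (14 genes had more than 1). After averaging, 15415 values per array remained, called features here: 10805 genes, and single features without exactly 1 symbol. All were fitted with limma 3.58.1 in R 4.3.3 (intercept, eBayes, 2-sided, Benjamini-Hochberg), and the procedure was tested on simulated data. The number of arrays limits the precision, and no source says how far the pools differ beyond being independent experiments. No sequence was used.

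The members, gene lists and alternatives were chosen with earlier results of these data known. Named genes were all called members, the 3 highest and 3 lowest of each group, GstS1 and Mgstl; the others were added to account for every member. Counts of means past 1.5-fold, the exact zeros and the neighbourhoods were looked at after the values were seen.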

Additional observations from a re-analysis of the deposited data

How the results depend on the processing

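All 7 called genes kept their calls with centred arrays, scaled arrays, array weights, single features, the feature of smallest SD per gene and exact zeros removed. Apart from GstE13 each of them has 1 feature, and none held an exact 0. Their own ratios were therefore the same with single features, the feature of smallest SD and zeros removed, and their kept calls there say little. Ugt302K1 alone lost its call with a robust prior (0.32, limma adjusted p = 0.051) and with grid trends removed (0.22, limma adjusted p = 0.059). With array weights, which gave pool 2 a weight of 3.42 against 0.44 and 0.67, limma called 2869 features higher and 2935 lower, 1966 and 2043 genes, and 13 and 9 of the 51 genes: 9 and 5 UDP-glycosyltransferases, 3 and 2 non-epsilon transferases, and 2 epsilon genes lower. With the feature of smallest SD the counts were 1660 and 1758 features and 1197 and 1268 genes, with 4 of the 51 genes lower, 2 of them epsilon and 2 UDP-glycosyltransferases, and 1 non-epsilon transferase higher. Single features were fitted without averaging and counted as features, not genes: 1730 were higher, and those of named genes were 1395 higher and 1255 lower. Of the features of the 51 genes 4 were lower: 2 of GstE13, with the others from Ugt317A1 and Ugt36E1. Among non-epsilon transferases 1 feature, of GstS1, was higher. Scaled arrays and grid trends removed each added 1 non-epsilon transferase, GstO3. With zeros removed Ugt35E2 was called from its 1 remaining value. At an adjusted p under 0.01 limma called 0 features, since the lowest adjusted p was 0.0123. Against a fold of 1.5 it called 5 features higher and 10 lower, 4 and 5 of them genes, and 0 of the 51. Every count was between 0 and 0 with 1 array left out, where the lowest adjusted p of the 51 genes was 0.089, 0.105 and 0.15 without pools 1, 2 and 3. Among the 22 genes named by rule, signs turned in GstS1 (-0.031 with its feature of smallest SD, also the weaker of its single features) and Mgstl (-0.015 with grid trends removed, and between -0.0077 and 0.046 with 1 pool left out), neither called. Of the other members, the feature of smallest SD also had the opposite sign to the mean in Ugt36D1 (-0.14) and GstZ2 (0.026). No paired analysis was possible because the control was 1 RNA shared by all arrays. The causes were not tested.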
